A study of Mus musculus with 10 samples.

Results

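The genes described here are the 39 Hox genes of the mouse, chosen by name as the protein-coding genes called Hoxa, Hoxb, Hoxc or Hoxd followed by a number, of 21938 protein-coding genes in GENCODE release M21 (build GRCm38). They lie in 4 clusters. The Hoxa cluster holds 11 genes (chr6:52155590-52260880), Hoxb holds 10 (chr11:96194316-96368256), Hoxc holds 9 (chr15:102921103-103036852) and Hoxd holds 9 (chr2:74668310-74765142).

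Hox proteins are homeodomain transcription factors that give cells their position along the body axis. The genes of a cluster lie in the order in which they are used along that axis, so genes of low number (anterior) are used towards the head and genes of high number (posterior) towards the tail, and genes of the same number in different clusters are paralogs. In pluripotent cells Hox promoters are classic Polycomb targets that can carry H3K4me3 together with the repressive mark H3K27me3. H3K4me3, the mark measured here, is found at promoters that are transcribed or held ready for transcription, so a peak alone does not tell these states apart. H3K27me3 and RNA were not analysed here.

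The cells were naive extra-embryonic endoderm (nEnd), a culture model of the early primitive endoderm that was derived from embryonic stem cells and kept on mouse embryonic fibroblast feeders in a defined medium with Activin A, CHIR99021 and LIF. All libraries came from 1 untreated reporter line, OCT4-mCherry, sorted by that reporter and by staining for PDGFRA-APC into Oct4+ nEnd (reporter only, 4 libraries), DP nEnd (both, 3 libraries) and Pdgfra+ nEnd (PDGFRA only, 3 libraries), so nothing here shows how another line would behave. H3K4me3 was mapped by CUT&Tag, in which an antibody directs the transposase Tn5 to the mark, and the question was which promoters carry it in each population. A Hox gene was called marked in a library where a peak overlapped, by at least 1 bp, a promoter window of 1000 bp before to 100 bp after any of its transcription start sites (TSSs).

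The peak lists differed in length within populations. Oct4+ nEnd replicates 3 and 4 held 3477 and 4887 peaks, and the other 8 libraries held 6510 to 10545, with the most in Pdgfra+ nEnd replicate 1. The highest coverage of a typical peak (median) was 22 to 59 in Oct4+ nEnd, 107 to 144 in DP nEnd and 67 to 143 in Pdgfra+ nEnd. Read depth is unknown. The promoter of *Pou5f1*, which encodes OCT4, was marked in all 4 Oct4+ and all 3 DP libraries and in none of the 3 Pdgfra+ libraries. *Pdgfra* was marked in all 6 DP and Pdgfra+ libraries and in 1 Oct4+ library.

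Most Hox promoters carried no peak. Of the 39 genes, 28 (71.8%) were marked in 0 of 10 libraries, against 47.0% of all protein-coding genes, and none was marked in all 10, against 16.5% of all genes. *Hoxa2*, *Hoxa3*, *Hoxa6*, *Hoxa9*, *Hoxa10* and *Hoxa11* were unmarked throughout, as were *Hoxc4*, *Hoxc5*, *Hoxc8*, *Hoxc9*, *Hoxc10* and *Hoxc11*. In the Hoxb cluster every gene but *Hoxb4* was unmarked (9 of 10), and in the Hoxd cluster every gene but *Hoxd8* and *Hoxd9* (7 of 9). Among the 11 genes marked at least once were *Hoxa4*, *Hoxa5*, *Hoxa7*, *Hoxa13*, *Hoxb4*, *Hoxc6*, *Hoxc12*, *Hoxc13*, *Hoxd8* and *Hoxd9*. The 11 genes did not gather at one end of the axis, since 3 of 12 genes of groups 1 to 4, 4 of 11 of groups 5 to 8 and 4 of 16 of groups 9 to 13 were among them.

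The promoter sequences of 4 genes are shown because they cover what was seen in the populations. *Hoxa5* and *Hoxa13* had peaks in all 3 populations, *Hoxb4* had none in Oct4+ nEnd, and *Hoxd13*, which patterns the digits, had no peak anywhere. Each run holds the 250 bases before the RefSeq gene start (GRCm38.p6), read 5′ to 3′ on the strand of the gene, with every CG dinucleotide in capitals, since unmethylated CpG-rich DNA is where H3K4me3 is commonly laid down. The letters CG read the same on both strands.
Hoxa5 (chr6:52204588-52204837, minus strand): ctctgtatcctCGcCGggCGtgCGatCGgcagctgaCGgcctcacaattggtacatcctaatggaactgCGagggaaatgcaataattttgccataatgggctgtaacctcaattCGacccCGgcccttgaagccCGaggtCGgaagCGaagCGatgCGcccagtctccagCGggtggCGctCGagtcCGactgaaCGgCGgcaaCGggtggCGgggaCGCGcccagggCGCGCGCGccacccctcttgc
Hoxa13 (chr6:52260881-52261130, minus strand): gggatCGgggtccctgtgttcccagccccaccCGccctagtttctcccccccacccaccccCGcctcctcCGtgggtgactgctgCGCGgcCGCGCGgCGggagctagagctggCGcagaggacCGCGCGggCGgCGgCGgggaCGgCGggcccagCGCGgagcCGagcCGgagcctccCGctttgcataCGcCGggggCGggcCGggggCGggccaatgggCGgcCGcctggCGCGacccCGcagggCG
Hoxb4 (chr11:96318017-96318266, plus strand): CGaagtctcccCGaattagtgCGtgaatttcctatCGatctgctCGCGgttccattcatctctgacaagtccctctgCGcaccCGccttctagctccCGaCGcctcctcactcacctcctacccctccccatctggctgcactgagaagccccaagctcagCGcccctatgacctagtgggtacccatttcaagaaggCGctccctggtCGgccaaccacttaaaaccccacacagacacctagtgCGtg
Hoxd13 (chr2:74667975-74668224, plus strand): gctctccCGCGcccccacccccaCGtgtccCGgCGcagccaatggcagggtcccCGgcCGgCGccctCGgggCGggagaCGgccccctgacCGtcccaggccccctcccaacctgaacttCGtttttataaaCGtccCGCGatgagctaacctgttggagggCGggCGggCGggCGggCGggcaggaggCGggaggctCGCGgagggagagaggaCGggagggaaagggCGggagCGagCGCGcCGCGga

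The 250 bases held 28 CG in *Hoxa5*, 35 in *Hoxa13*, 14 in *Hoxb4* and 31 in *Hoxd13*. Among the 32851 RefSeq promoters, 92.1% held at least 1 CG in these bases, and the median was 6. The unmarked *Hoxd13* promoter held more CG than 94.8% of promoters, and *Hoxb4* more than 70.6%. A peak lay over all 250 bases of *Hoxa13* in 2 Oct4+, 3 DP and 2 Pdgfra+ libraries, over those of *Hoxa5* in 2 of each, and over those of *Hoxb4* in 0 Oct4+, 3 DP and 1 Pdgfra+ library.

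**Figure D1:**
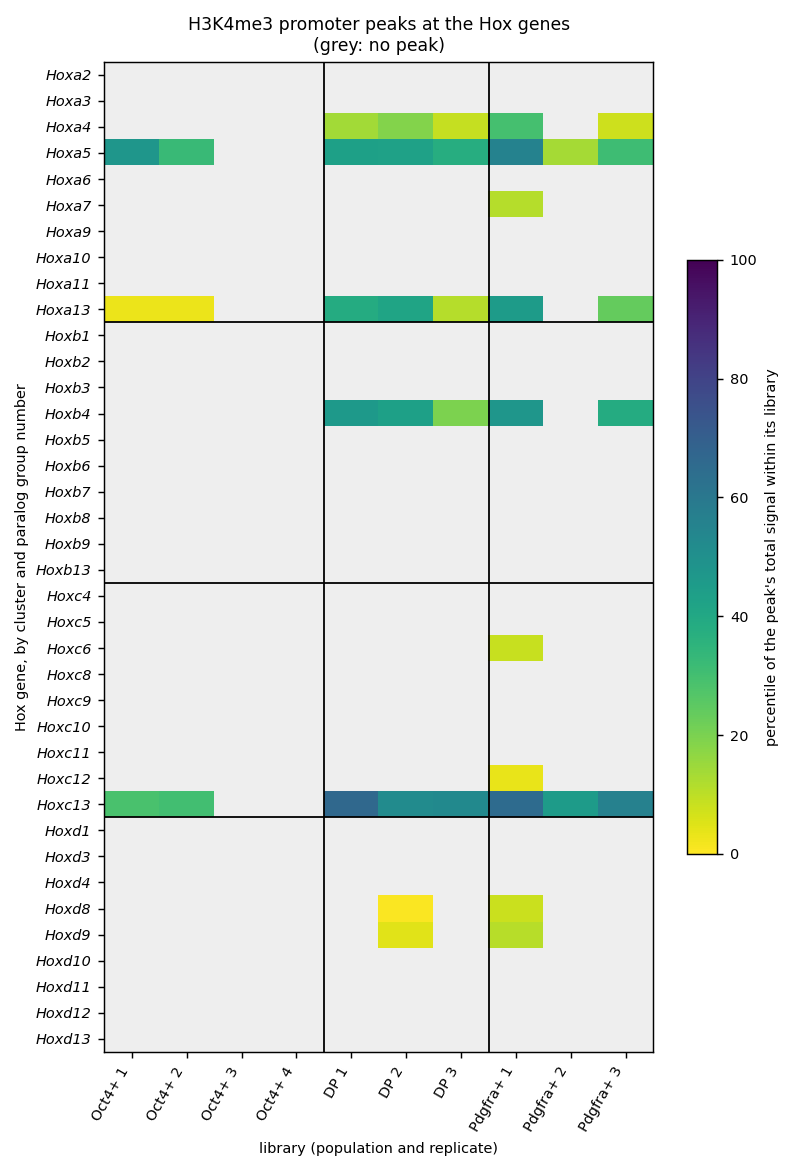
Each row is a Hox gene and each column 1 library. Colour gives the percentile of the promoter peak by total signal among all peaks of its library, and grey means no peak. Coloured rows are genes marked at least once, and the columns of Oct4+ nEnd replicates 3 and 4 are grey throughout.

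Every DP library marked more Hox genes than any Oct4+ library. The 4 Oct4+ libraries marked 4, 4, 0 and 0 (replicates 1 to 4). DP nEnd replicates 1 to 3 marked 6, 8 and 6 and those of Pdgfra+ nEnd 11, 3 and 6. These are means of 2 ± 2.31 (SD, n = 4), 6.67 ± 1.15 (SD, n = 3) and 6.67 ± 4.04 (SD, n = 3). The Pdgfra+ values overlapped those of both other populations. The 2 libraries with the fewest peaks had no marked Hox gene, and the library with the most peaks had the most. Of all protein-coding genes, 43.5%, 39.5%, 18.3% and 25.2% were marked in Oct4+ nEnd, 41.5%, 44.8% and 39.1% in DP nEnd and 50.8%, 33.5% and 39.7% in Pdgfra+ nEnd, so the all-gene shares of Oct4+ and DP nEnd overlapped. The share of Hox genes marked, 0 to 28.2%, lay below that of all genes in each of the 10 libraries. In the authors' consensus lists, 4 Hox genes were marked in Oct4+ nEnd (*Hoxa5*, *Hoxa13* and *Hoxc13* among them), and the same 4 with *Hoxa4* and *Hoxb4* in both DP and Pdgfra+ nEnd.

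Peak strength was compared only within a library, as the percentage of its peaks with a total signal no higher than that of the promoter peak (percentile), and 0 was written where there was no peak. In DP and Pdgfra+ nEnd, *Hoxc13*, a posterior gene needed for hair and nails, had the highest percentiles among the genes described here. Its percentile was 28.6, 30.3, 0 and 0 in Oct4+ nEnd, 66.04, 51.8 and 52.6 in DP nEnd and 65.2, 45.3 and 56.0 in Pdgfra+ nEnd. All 6 DP and Pdgfra+ values were above all 4 Oct4+ values. By highest coverage the DP values stayed above, while Pdgfra+ replicate 2 fell to 7.43, below the 28.8 of Oct4+ replicate 2. The region (chr15:102919492-102923703) lies at the edge of the Hoxc cluster, with 815 bp in exons and 1786 bp in introns of the gene and 1611 bp upstream of it.

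*Hoxa5*, a central gene with a known role in lung development, did not separate the populations. Its percentile was 47.4, 32.2, 0 and 0 in Oct4+ nEnd, 43.0, 42.6 and 37.8 in DP nEnd and 55.7, 13.5 and 31.1 in Pdgfra+ nEnd. In the 2 Oct4+ libraries with a peak it thus ranked within the range of Pdgfra+ nEnd. The same 8 libraries marked *Hoxa5* and *Hoxc13*, and neither gene was marked in Oct4+ nEnd replicates 3 and 4.

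*Hoxa13*, which patterns the distal limb and the hindgut, was marked in 7 libraries and was chosen for description after its values were seen. It stood at 2.887 and 3.001 in Oct4+ replicates 1 and 2 and had no peak in replicates 3 and 4. It stood at 38.6, 41.5 and 11.3 in DP nEnd and at 45.1, 0 and 23.7 in Pdgfra+ nEnd. The Oct4+ peaks were thus among the weakest of their libraries, and the DP values all lay higher. By highest coverage DP replicate 3 stood at 0.970, below the 3.48 of Oct4+ replicate 2. The region (chr6:52258292-52263737) also holds the start of *Hottip*, a non-coding RNA at the end of the Hoxa cluster.

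*Hoxa4* and *Hoxb4*, paralogs of group 4, were the Hox genes marked in every DP library and in no Oct4+ library. *Hoxb4*, known for its effect on blood stem cells, stood at 46.3, 43.0 and 19.6 in DP nEnd and at 47.6, 0 and 38.3 in Pdgfra+ nEnd. *Hoxa4*, which acts in the axial skeleton, stood lower, at 13.95, 18.7 and 8.69 in DP nEnd and at 29.3, 0 and 7.73 in Pdgfra+ nEnd. Both were thus missing from Pdgfra+ replicate 2 and from all 4 Oct4+ libraries, of which replicates 1 and 2 held 9144 and 8098 peaks. The DP ranks of *Hoxa4* (6918 to 7185, where 1 is the strongest peak) lay beyond the length of the lists of Oct4+ replicates 3 and 4, as did 2 of the 3 ranks of *Hoxb4* (4363 to 6089).

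These 2 genes stand against a background of 1.93% of all protein-coding genes with that pattern, DP over Oct4+. By Fisher's exact test, two-sided, each had p = 0.0286, which is the lowest value possible with 7 libraries split 4 to 3, and an adjusted p of 1 over all 21938 genes, of which 467 had an unadjusted p under 0.05 and 0 an adjusted p under 0.05. The same count of Hox genes was 0 in the other 5 directions. There the background was 0.201% for Oct4+ over DP, 0.356% for Oct4+ over Pdgfra+, 1.42% for Pdgfra+ over Oct4+, 0.109% for DP over Pdgfra+ and 0.00456% for Pdgfra+ over DP. Without Pdgfra+ nEnd replicate 2, the count for Pdgfra+ over Oct4+ was 2 Hox genes, *Hoxa4* and *Hoxb4*, in place of 0. For Oct4+ against Pdgfra+ nEnd the smallest adjusted p over all genes was 1 too, and 390 genes, of which 0 were Hox genes, had an unadjusted p under 0.05. For DP against Pdgfra+ nEnd Fisher's exact test cannot go below p = 0.10, so 0 genes had an unadjusted p under 0.05.

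Counted by percentile, the lowest DP value lay above the highest Oct4+ value at 4 Hox genes (*Hoxa4*, *Hoxa13*, *Hoxb4*, *Hoxc13*), with a background of 12.4% of all genes. The lowest Pdgfra+ value lay above the highest Oct4+ value at 2, *Hoxc13* among them, with a background of 9.97%, and both counts are a lower share of the 39 Hox genes than that background. The count was 0 in the other directions, where the background was 2.23% for Oct4+ over DP, 2.45% for Oct4+ over Pdgfra+, 1.42% for DP over Pdgfra+ and 2.46% for Pdgfra+ over DP.

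The remaining 5 marked genes had weak peaks in 1 or 2 libraries. *Hoxd8* stood at 0.770 in DP replicate 2 and at 8.05 in Pdgfra+ replicate 1. *Hoxd9*, its neighbour, stood at 4.67 and 10.7 in the same libraries. *Hoxa7* (percentile 11.1), *Hoxc6* (8.59) and *Hoxc12* (3.46) were marked in Pdgfra+ replicate 1 alone. *Hoxc6* was counted through an annotated transcript that is not protein-coding, and with TSSs of protein-coding transcripts only that library marked 10 Hox genes. The 4 regions found in 1 library only all came from Pdgfra+ replicate 1, the longest peak list.

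**Figure D2:**
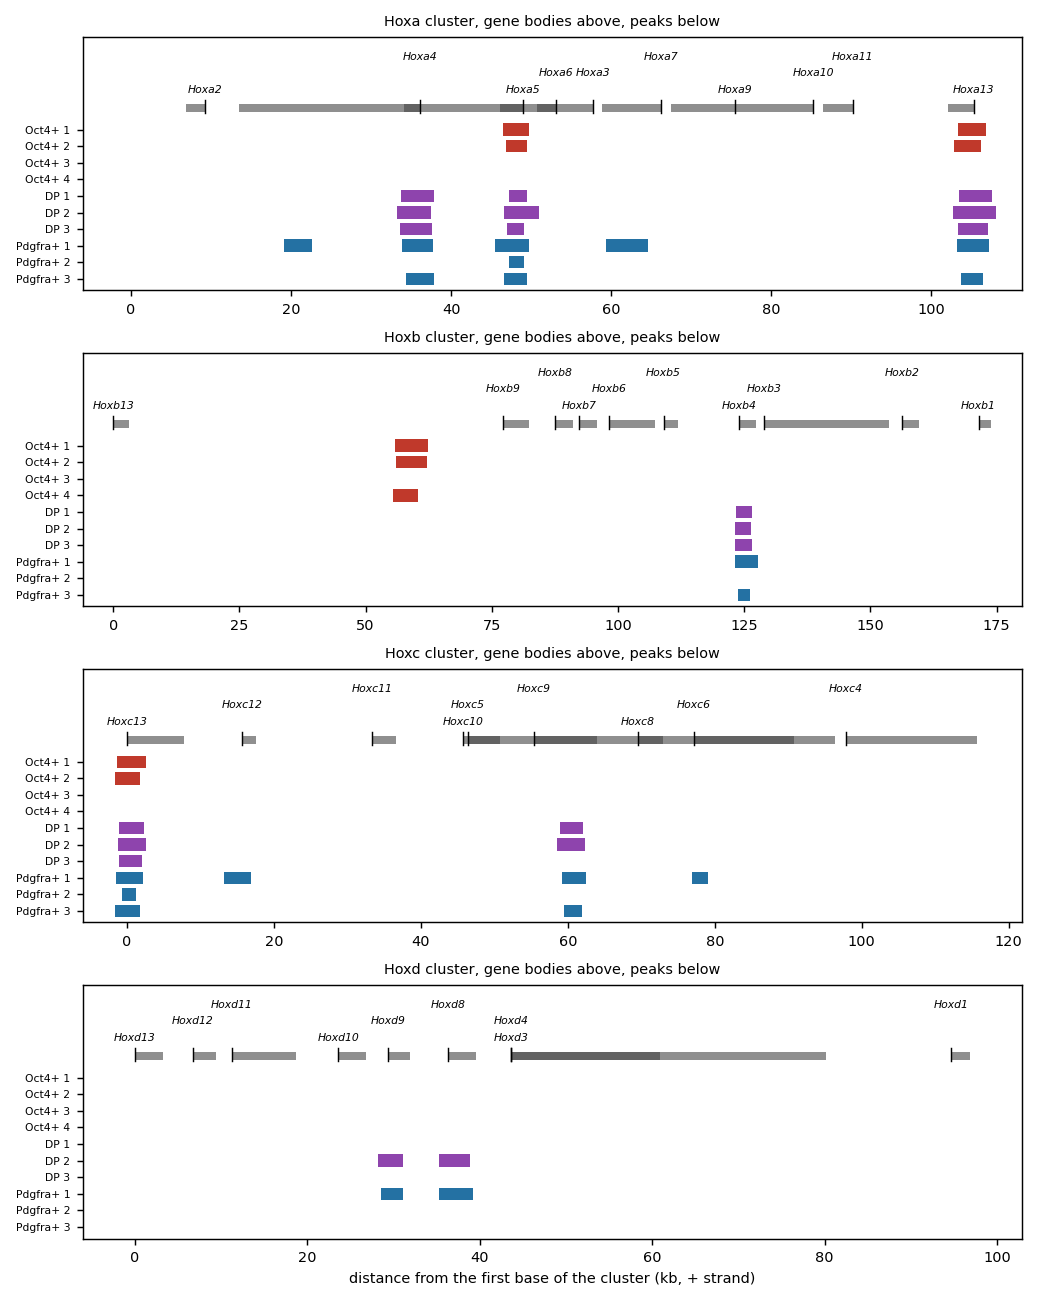
The 4 panels draw the clusters to scale in kb from their first base, with gene bodies in grey, start sites as ticks, and the peaks over the promoters and regions named in the text below (red Oct4+, purple DP, blue Pdgfra+ nEnd). In the Hoxb cluster the 3 Oct4+ peaks and the 5 DP and Pdgfra+ peaks lie at different places, 60687 bp apart.

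Along the clusters the peaks stood apart from each other and were of ordinary width for their libraries (median percentile by width 47.4). The 10 lists held 56 peaks in the 4 clusters, which merged into 14 regions, of which 11 contained the promoter of a Hox gene, and no peak held the promoters of more than 1 Hox gene. A peak was 1962 to 6634 bp wide (median 3650.5). None reached the 95th percentile of its library by width or by total signal, and 16 of 56 were above the 50th by total signal.

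The Hoxb cluster was the place where Oct4+ nEnd had peaks of its own. A region between *Hoxb13* and *Hoxb9* (chr11:96249667-96256703) had a peak in Oct4+ replicates 1, 2 and 4, at percentiles 56.5, 54.1 and 40.1, and in none of the 6 DP and Pdgfra+ libraries. It covers the start of the lincRNA gene *Gm53*, mostly its introns, and was chosen for description after its values were seen. *Mir196a-1*, a microRNA gene known to target Hox transcripts, lies 8460 bp from the region and *Hoxb9* 14753 bp from it. At widths of 5073 to 6634 bp these peaks stood at percentiles 70.7 to 91.6 by width and 27.2 to 29.4 by highest coverage, so they were broad and low for their libraries. Of 11449 merged regions over all libraries, 2.14% had a peak in at least 3 of 4 Oct4+ libraries and in no other library.

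The *Hoxb4* region (chr11:96317391-96321975) showed the reverse, with peaks in 3 DP and 2 Pdgfra+ libraries and 0 of 4 Oct4+ libraries. A peak in at least 2 libraries of both DP and Pdgfra+ nEnd and in no Oct4+ library was found at 4.79% of merged regions. *Mir10a*, a microRNA gene of the cluster, ends 116 bp before the region. Each library with a peak in the Hoxb cluster had only 1, and no library had peaks at both places.

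Of 43 annotated genes of the clusters that are not protein-coding, 9 were marked in at least 1 library, 7 of them in the Hoxa cluster, beside 9.53% of all 33475 such genes. Several of the 9 share a peak with a Hox promoter. In the Hoxc cluster 1 region without a promoter (chr15:102979666-102983590) lay within the annotated bodies of *Hoxc9* and *Hoxc5*. It had peaks in DP replicates 1 and 2 at percentiles 2.504 and 15.9 and in Pdgfra+ replicates 1 and 3 at 36.5 and 8.04. In the Hoxa cluster 1 region (chr6:52174723-52178177), found in Pdgfra+ replicate 1 alone, lay in an intron-rich stretch of *Hoxa3* at the start of another coding gene, 5730596B20Rik.

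**Figure D3:**
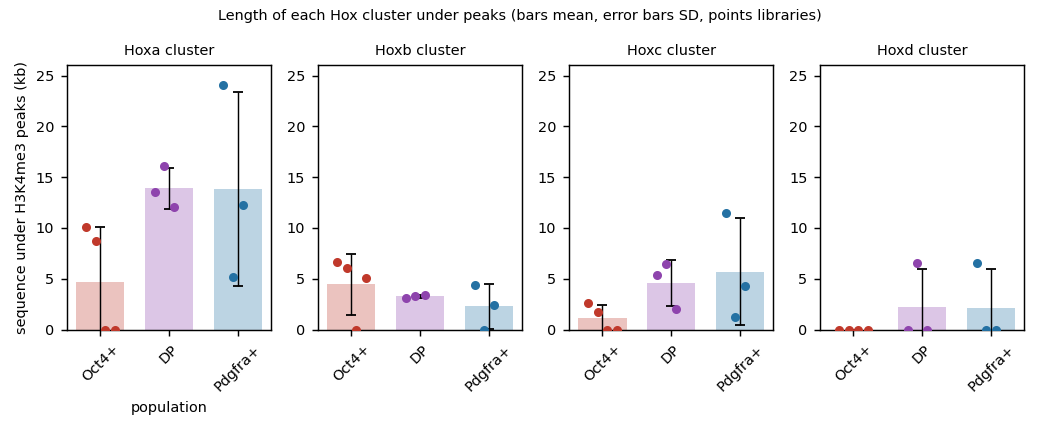
For each cluster, points show the length under peaks in kb in each library, bars the mean of the population and error bars the SD (n = 4, 3 and 3), drawn only above 0. The Hoxa cluster reaches 24058 bp in Pdgfra+ replicate 1, and the Hoxd cluster is at 0 in 8 of 10 libraries.

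The length of each cluster under peaks was compared next. In the Hoxa cluster it was 10062, 8697, 0 and 0 bp in Oct4+ nEnd, 13541, 16082 and 12032 bp in DP nEnd and 24058, 5161 and 12284 bp in Pdgfra+ nEnd. The DP values all lay above the Oct4+ values and the Pdgfra+ values overlapped both. The means were 4690 ± 5444 bp (SD, n = 4), 13885 ± 2047 bp (SD, n = 3) and 13834 ± 9543 bp (SD, n = 3). By exact two-sided permutation tests, p was 0.0857 for Oct4+ against DP nEnd, 0.20 for Oct4+ against Pdgfra+ nEnd and 1 for DP against Pdgfra+ nEnd.

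In the Hoxb cluster the length was 6634, 6054, 0 and 5073 bp in Oct4+ nEnd, 3135, 3313 and 3393 bp in DP nEnd and 4409, 0 and 2395 bp in Pdgfra+ nEnd. The exact permutation p was 0.60 (Oct4+ against DP), 0.343 (Oct4+ against Pdgfra+) and 0.70 (DP against Pdgfra+). Here the lengths come from different regions, *Gm53* in Oct4+ and *Hoxb4* in DP and Pdgfra+ nEnd, so a like length is not a like pattern.

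In the Hoxc cluster the length was 2601, 1762, 0 and 0 bp in Oct4+ nEnd, 5382, 6408 and 2053 bp in DP nEnd and 11518, 1258 and 4283 bp in Pdgfra+ nEnd, with overlap between all populations. The exact permutation p was 0.0857, 0.114 and 0.90 for the same 3 pairs. In the Hoxd cluster 6522 bp were covered in DP replicate 2 and 6500 bp in Pdgfra+ replicate 1 and none in the other 8 libraries, and p was 0.429, 0.429 and 1. After Benjamini-Hochberg adjustment over the 12 comparisons the smallest p was 0.457, and no comparison passed. The smallest p this design allows before adjustment is 0.0286 for 4 libraries against 3 and 0.10 for 3 against 3, so the tests do not show that the populations were alike.

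**Figure D4:**
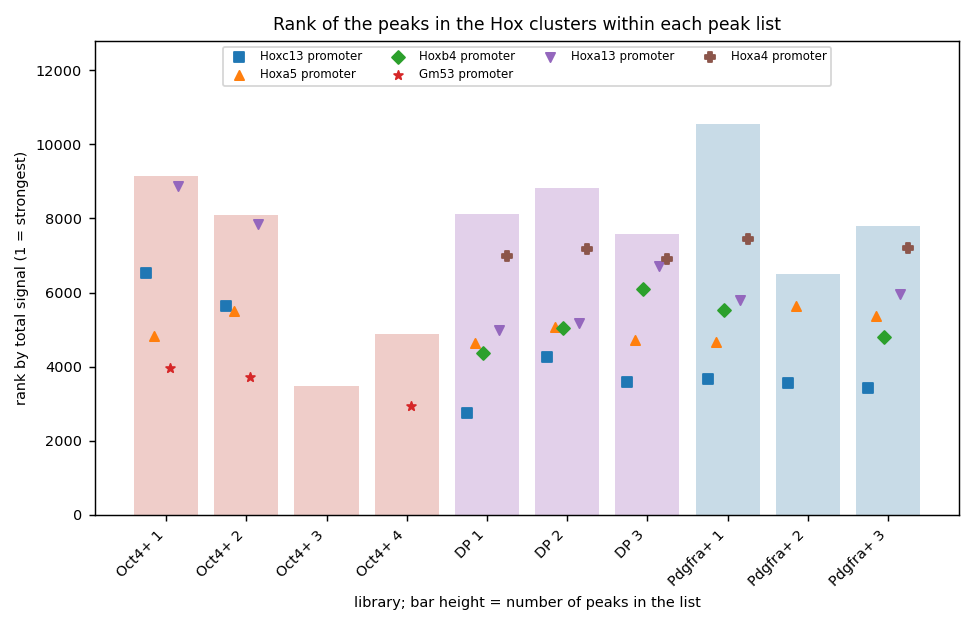
Bars give the number of peaks in each list, and symbols the rank of the peaks over 6 promoters by total signal (1 is the strongest). Most symbols lie beyond the length of the shortest list, 3477, and *Hoxa4* ranks at 6918 to 7453 in the 5 libraries that mark it.

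How the absence of Hox peaks in Oct4+ replicates 3 and 4 relates to their short lists can be read from the ranks. Of the 3477 strongest peaks of replicate 1, 83.7% had an overlapping peak in replicate 3 and 96.6% in replicate 4, and for replicate 2 these were 86.3% and 97.8%. The *Hoxc13*, *Hoxa5* and *Hoxa13* peaks ranked 4815 to 8881 in replicates 1 and 2, beyond the length of the list of replicate 3, and all but the *Hoxa5* peak of replicate 1 (rank 4815) beyond that of replicate 4 as well. The *Gm53* peak ranked 2926 in replicate 4. With only the 3477 strongest peaks of each library, the difference in marked Hox genes between Oct4+ and DP nEnd shrank from -4.67 to -0.833, and no Hox gene was marked in all DP and no Oct4+ libraries. Without Oct4+ replicates 3 and 4, the difference was -2.67, and *Hoxa4* and *Hoxb4* were marked in every DP and neither remaining Oct4+ library. The part of list length in these differences was not tested beyond these values.

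**Figure D5:**
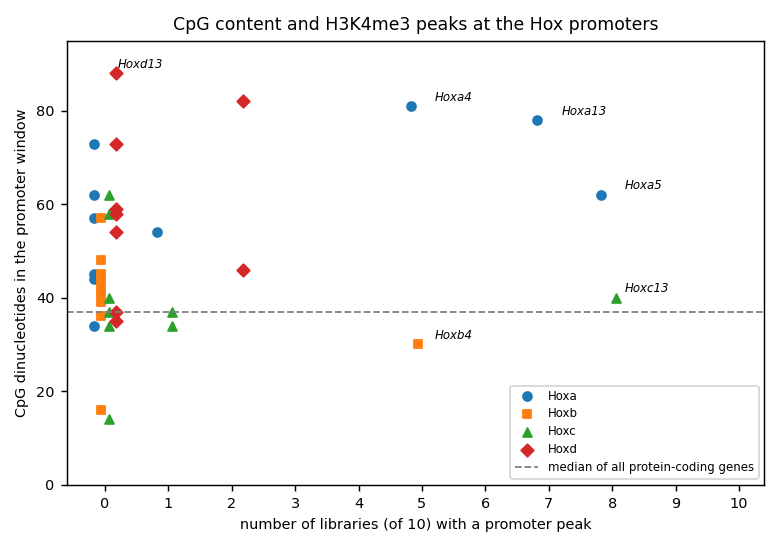
Each point is a Hox gene, placed by the number of libraries with a promoter peak (x axis) and the number of CpG dinucleotides in its richest promoter window of 1101 bp (y axis). The dashed line is the median of all protein-coding genes, 37, and points with and without peaks lie on both sides of it.

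The CpG content of marked and unmarked Hox promoters overlapped. Counted in the promoter window of 1101 bp read from the GRCm38 genome, taking the richest window of a gene with several starts, the 6 genes marked in 5 or more libraries held 30 to 81 CpG (median 65.5) and the 28 genes never marked held 14 to 88 (median 44.5). Over 21930 protein-coding genes the median was 37. Of the 28 unmarked genes, 20 lay above that median, while *Hoxb4*, with 30, was marked in 5 libraries and *Hoxc13*, with 40, in 8. *Hoxd13* (88), *Hoxa10* (73) and *Hoxd11* (73) held the most among the unmarked. This is a description over genes of shared ancestry, without a test.

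Pbx, Meis and Pknox genes encode the TALE cofactors that bind DNA together with Hox proteins. Each library marked 3 to 9 of these 9 genes. *Pbx2*, *Meis2* and *Pknox1* were marked in all 10 libraries and none of the 9 was unmarked throughout, beside 16.5% and 47.0% of all protein-coding genes. *Meis3* was at 0 in all 4 Oct4+ libraries and stood at 36.2, 35.3 and 30.4 in DP nEnd and at 55.7, 35.1 and 42.8 in Pdgfra+ nEnd. It was the cofactor marked in all DP and in all Pdgfra+ libraries and in no Oct4+ library (p = 0.0286 in both by Fisher's exact test, adjusted p = 1 over all genes). *Meis1* was not picked by a rule set beforehand. It stood at 21.1 in Oct4+ replicate 1 and at 0 in the other 3, at 74.99, 67.6 and 56.7 in DP nEnd and at 85.5, 23.5 and 65.0 in Pdgfra+ nEnd.

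The Cdx genes encode activators of Hox genes in the early embryo. *Cdx1* had a peak in Oct4+ replicates 1 and 2 (23.0 and 24.4) and nowhere else. *Cdx2*, which is also a trophectoderm factor, was at 0 in all 4 Oct4+ libraries, at 9.83, 24.7 and 0 in DP nEnd and at 50.6, 0 and 24.2 in Pdgfra+ nEnd. *Cdx4* was unmarked in all 10. None of the 3 was marked in all libraries of one population and none of another.

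Genes beside the clusters gave the local comparison. Of 14, *Cbx5*, *Hnrnpa3* and *Nfe2l2* were marked in all 10 libraries and 4 in none, among them *Evx1* and *Evx2*, homeobox genes at the posterior ends of Hoxa and Hoxd, beside 16.5% and 47.0% of all protein-coding genes. Of 12 Dlx and Irx genes, other homeobox genes found in clusters, 7 were unmarked throughout, beside 47.0% of all genes. *Irx5* was not picked by a rule set beforehand. It was at 13.95 in Oct4+ replicate 1 and 0 in the other 3, at 69.3, 59.7 and 52.3 in DP nEnd and at 86.3, 88.4 and 84.2 in Pdgfra+ nEnd. *Irx2* did not separate in this way. It stood at 58.6, 48.9, 0 and 0 in Oct4+ nEnd, at 47.4, 45.4 and 29.7 in DP nEnd and at 54.1, 40.1 and 29.0 in Pdgfra+ nEnd.

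The cultures were grown on fibroblasts, which use many Hox genes, so fibroblast genes were read in the same way. Oct4+ and DP nEnd were sorted as positive for the OCT4-mCherry reporter, which feeder cells lack, and Pdgfra+ nEnd by PDGFRA alone. How many feeder cells remained after each sort was not tested. Of 20 fibroblast markers, 16 were unmarked in all 10 libraries, beside 47.0% of all genes, the defining collagen genes *Col1a1*, *Col1a2* and *Col3a1* with *Dcn*, *Prrx1* and *Twist2* among them. The number marked per library was 0 or 1 in Oct4+ nEnd, 1 to 3 in DP nEnd and 0 to 4 in Pdgfra+ nEnd. Their summed percentile was 0 to 1.04 in Oct4+ nEnd, 8.67 to 34.8 in DP nEnd and 0 to 72.3 in Pdgfra+ nEnd. *Col5a1*, a collagen gene, was the marker found in all DP (9.03, 18.1 and 8.67) and no Oct4+ libraries, a pattern held by 1.93% of all genes. Pdgfra+ replicate 1 had the most marked fibroblast genes, 4, and also the most marked genes of all kinds (50.8% of protein-coding genes). Their part in the Hox peaks was not tested.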

How the data were processed

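H3K4me3 CUT&Tag libraries were analysed from 4 Oct4+, 3 DP and 3 Pdgfra+ nEnd samples. Per the labels and methods, sorted cells were used, DNA was PCR-amplified and sequenced paired-end, reads were mapped to mm10 (GRCm38; the submitters' processing notes name Bowtie2, SAMtools 1.12, bedtools 2.26.0 and SEACR), and peaks were called against IgG with the stringent setting. Per library the authors deposited each peak with its total signal and highest signal (coverage) in that library, not scaled between libraries. They also deposited 1 consensus list per population (DiffBind), used for positions only, since its score column is constant. Read depth is unknown, so no interval was computed. PCR duplicates and the cutting preference of Tn5 can change peak signal, and a stringent peak list lengthens with depth, so libraries were compared by presence of peaks and ranks within a library.

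Members and lists were chosen with earlier results of these data known. Promoters were windows of 93513 TSSs (GENCODE release M21). Named genes were those marked in all libraries of one population and none of another, those marked in all 10 libraries, and the 2 of each cluster with the highest mean percentile. A gene that this selection gives is counted but not described here. Lengths under peaks were compared by exact two-sided permutation tests, with adjustment over 12 comparisons, and genes by Fisher's exact test over all 21938 genes. Replicates are separate samples of 1 line, and the tests set the observed grouping of libraries against all groupings of the same libraries. Whether replicates differ by culture, sort or depth is not given in the sources used here. The labels do not tie replicate numbers to shared cultures, and samples of the same number did not correlate in every pair, so numbers were not used to pair samples. The planned CpG count from the RefSeq promoter table was void, since it held 22 of 39 Hox genes (56.4%), and windows from the genome were used. The alternatives were promoter windows reaching 2500 bp to either side, a peak over 50% of the window, equal numbers of peaks, highest coverage, clusters widened by 5000 bp, consensus lists, a replicate block and leaving out libraries. TSSs of protein-coding transcripts only, leaving out both small Oct4+ libraries and the CpG windows from the genome were added after seeing the data. The counting was tested on simulated data. Statistics used scipy 1.17.1 under Python 3.11.15 with pandas 2.3.3 and numpy 2.4.6, and plots used matplotlib 3.10.9.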

Additional observations from a re-analysis of the deposited data

How the results depend on the processing

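None of the 12 comparisons of cluster length passed the threshold of 0.05 under any alternative, but most could not have passed. With libraries left out, with the replicate block, or for DP against Pdgfra+ nEnd, the smallest possible p lies above it. Only equal numbers of peaks and the widened clusters, for the pairs with Oct4+ nEnd, could have passed. No comparison with Oct4+ nEnd changed sign. The Hoxd difference was 0 with equal numbers of peaks. It was also 0 without DP replicate 2 (against DP nEnd) and without Pdgfra+ replicate 1 (against Pdgfra+ nEnd). With equal numbers of peaks the difference from DP nEnd shrank from -9195 to -2549 bp in Hoxa and from -3524 to -769 bp in Hoxc, and that from Pdgfra+ nEnd from -9145 to -2097 bp and from -4596 to -601 bp. With 1 library left out, the Oct4+ difference in Hoxa ranged from -10986 to -7632 bp against DP nEnd. Against Pdgfra+ nEnd it ranged from -13481 to -4033 bp. In Hoxb these ranges were 429 to 2640 bp and 1038 to 3652 bp, and in Hoxc -4804 to -2627 bp and -6810 to -1680 bp. The difference between DP and Pdgfra+ nEnd changed sign when 1 library was left out. It ranged from -4286 to 5162.5 bp in the Hoxa cluster (-1047.83 bp without DP replicate 2, -724.5 bp without Pdgfra+ replicate 3), from -121.667 to 2082.83 bp in Hoxb, from -3286.17 to 1843.83 bp in Hoxc (208.667 bp without DP replicate 3) and from -2166.67 to 2174 bp in Hoxd (-1076 bp without Pdgfra+ replicate 2 or 3). With equal numbers of peaks the Hoxc difference was 168 bp.

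With equal numbers of peaks, Oct4+ nEnd marked -0.833 Hox genes relative to DP nEnd, in place of -4.67, and the count marked in all DP and no Oct4+ libraries was 0 in place of 2. In the consensus lists the difference from DP nEnd was -2, but the libraries behind the Oct4+ list are not given in the sources used here, and replicate 3 may not be among them. With 1 library left out it ranged from -5.33 to -4 against DP nEnd and from -6.5 to -2.5 against Pdgfra+ nEnd, and the count marked in all Pdgfra+ and no Oct4+ libraries ranged from 0 to 2. By highest coverage the mean percentile moved to 37.6 for *Hoxc13* in Pdgfra+ nEnd, and to 5.36 for *Hoxa4* and 48.5 for *Hoxa5* in DP nEnd. The wider window, the 50% overlap and the protein-coding TSSs moved no count of marked Hox genes by more than the spread between libraries.

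Whether samples of the same replicate number share a culture is not given in the sources used here, and their deviations from the group means were mixed (correlations over all genes from -0.363 to 0.464, with replicate 3 at 0.111 to 0.287 in its 3 pairs). With a replicate block over numbers 1 to 3 the Hoxa difference between Oct4+ and DP nEnd was -7632 bp (exact permutation p = 0.25, the smallest this block allows), and the difference in marked Hox genes was -4. Absence of a peak in the 2 short Oct4+ lists does not show absence of the mark.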
